A study of Drosophila melanogaster with 2 samples.

Results

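Binding of GFP-tagged hng2 was examined at 8 genes of Drosophila segment polarity and Hedgehog signalling, out of 13968 protein-coding genes on the main chromosome arms. The genes were hh, wg, ptc, smo, ci, en, inv and gsb, chosen by name. Each was described over its annotated length plus 2 kb to each side, its window. The data are chromatin immunoprecipitation with sequencing (ChIP-seq) of whole embryos aged 0 to 14 h, male and female pooled. All embryos came from a transgenic line that stably expresses CG8359, now named hng2, with GFP at its C-terminus. The labels do not say whether the line still carries the untagged gene, and whole embryos mix all cell types. The 2 samples are biological replicates, numbers 2 and 3, and form 1 group, with no untagged or unprecipitated samples analysed here. The labels disagree on the antibody: the antibody entry names CG8359, while the sample text names anti-GFP.

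Segment polarity genes divide each segment of the embryo into compartments. Cells that make the homeodomain protein Engrailed secrete Hedgehog. Neighbouring cells receive it through Patched, which otherwise holds back Smoothened, and answer through the zinc-finger factor Cubitus interruptus (Ci) by transcribing ptc and wg. Wingless, the Wnt ligand encoded by wg, in turn keeps engrailed active next door. The locus of en and its paralogue inv, and hh, are textbook targets of Polycomb repression. The protein hng2 carries a MADF domain, a DNA-binding fold found in many Drosophila nuclear proteins.

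Peaks of the tagged protein reached the authors' reproducible list at 2 of the 8 genes, ptc and inv. Of 3170 optimal peaks (those kept by the irreproducible discovery rate, IDR, step), 6 had their summit in the 8 windows, 3 at ptc and 3 at inv. The share of members was 25% (95% exact interval 3.19 to 65.1), against 21.5% of all protein-coding genes. The members' share was therefore near that of genes at large. A summit within 500 bp of the gene's own transcription start site (TSS) was present at 1 of the 8, ptc, or 12.5% (95% exact interval 0.316 to 52.7), against 10.3% of all genes. In the 3170 strongest peaks of a single replicate, members with a summit in the window numbered 2 of 8 in replicate 2, against 22.2% of all genes. They numbered 3 of 8 in replicate 3 (ptc, inv and ci), against 20.7% of all genes. No enrichment test was made, since genes were chosen with results of these data known.

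In the longer, relaxed list of 30000 peaks called on the pooled replicates, all 8 genes had at least 1 summit in the window, as did 78.4% of all protein-coding genes. The authors label this list as peaks and background, so a relaxed summit need not be a bound site. The caller's −log10 q of the strongest relaxed summit was 0.77 at hh and wg, 0.63 at en, 0.88 at gsb and 0.16 at smo. It was 1.56 at ci, 3.01 at ptc and 3.25 at inv. The windows held 66 relaxed summits, from 1 at smo to 29 at inv. Of these, 42 were intronic, 7 lay within 500 bp of an own TSS and 7 were in coding exons. The rest lay downstream (5), upstream (2), in 3' UTRs (2) and in the 5' UTR (1). This amounts to 5.22 relaxed summits per 10 kb of member window, against 2.54 over the windows of all genes, in which a summit shared by overlapping windows counts in each. The highest density was at en, with 8.53 per 10 kb, followed by inv (7.39), gsb (5.99), ptc (5.11), hh (3.95) and wg (3.81). The values of ci (2.25) and smo (1.16) lay below that over all genes. For optimal summits the density was 0.474 per 10 kb of member window, from 6 summits at ptc and inv, against 0.293 over all genes.

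**Figure D1:**
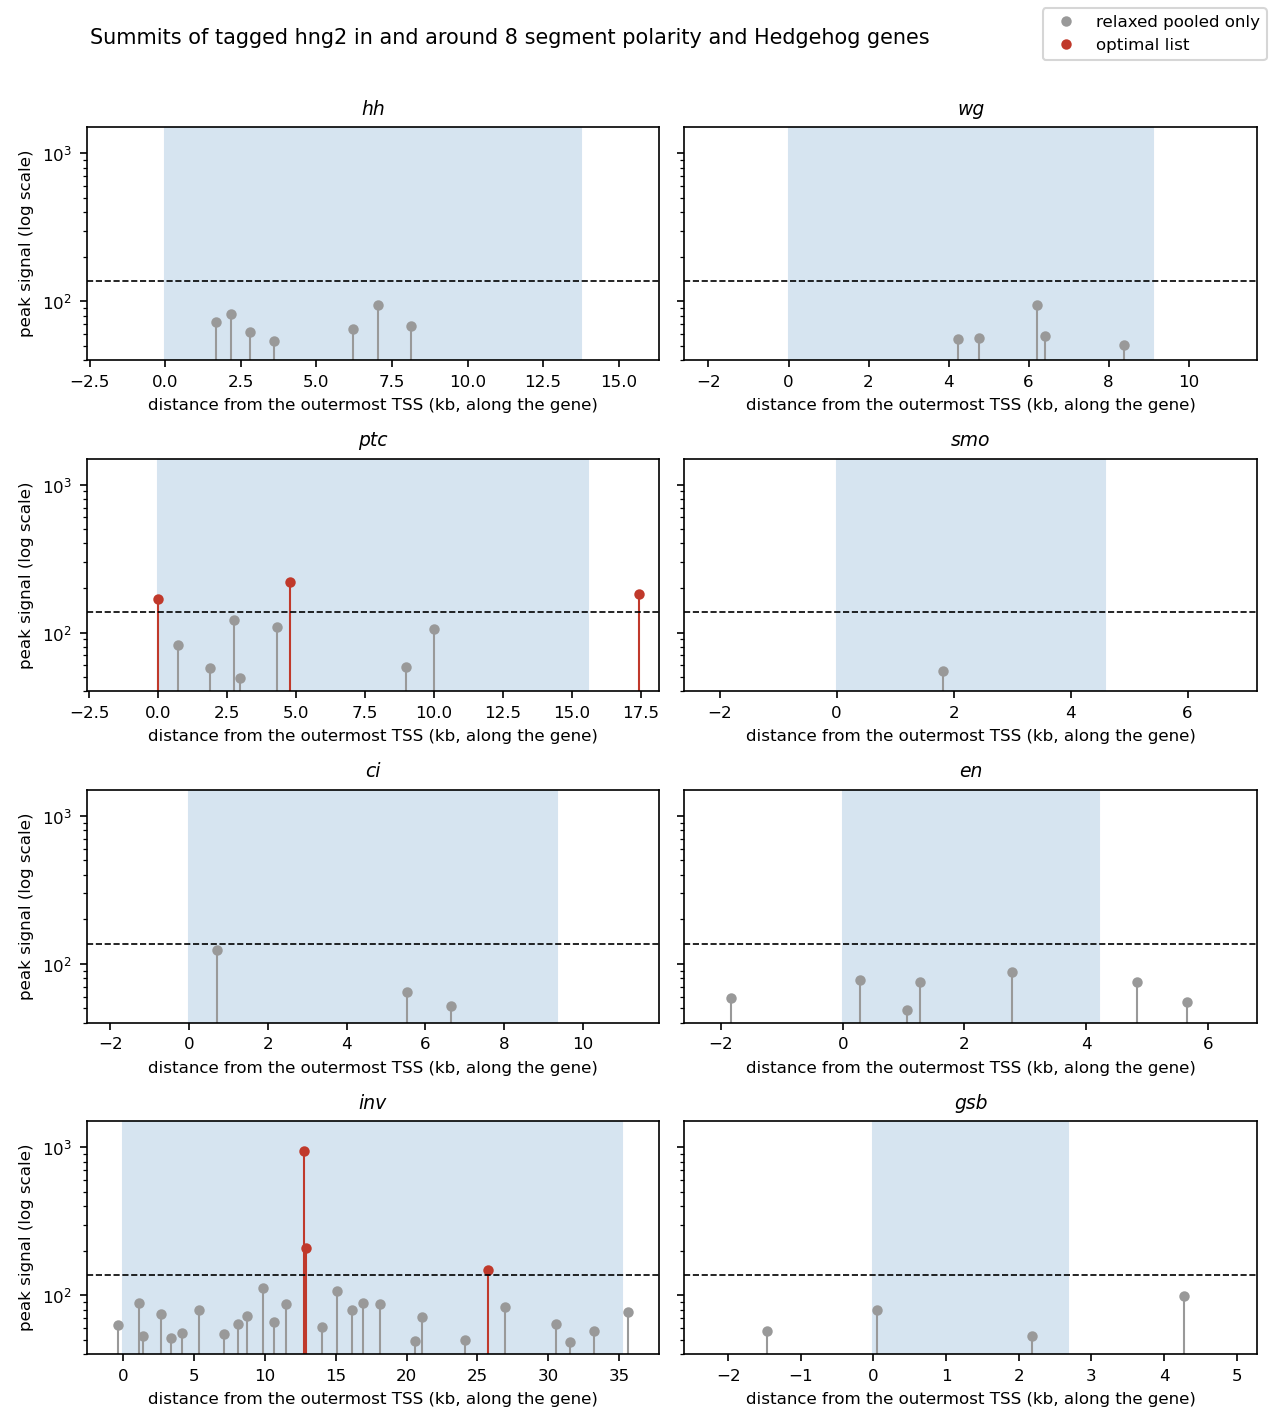
Position and signal of every pooled summit in the 8 windows. The x axis is the distance in kb from the outermost TSS along the gene, the y axis the authors' peak signal on a log scale. The shaded box is the gene, red points are in the optimal list, grey points are in the relaxed pooled list alone, and the dashed line is the lowest optimal signal, 137. Red points occur at ptc and inv; the points of the other 6 genes lie below the line.

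The ligand gene hh (FBgn0004644, 3R, 23128169 to 23141906 on dm6, minus strand) had no optimal summit in its window. Its 7 relaxed summits were all intronic. The strongest was at 23134864, 7042 bp from the hh TSS and 6883 bp from that of CG31457, the nearest TSS. It had a pooled signal of 94.5 and rank 6540. This summit was found in both replicates, with a signal of 57.7 and rank 6911 in replicate 2 and a signal of 41.5 and rank 7218 in replicate 3. The replicate 3 summit lay 98 bp from the pooled one, just inside the 100 bp within which summits were matched. It was not the strongest summit of hh in either replicate. Replicate 2 was strongest at 23139720, 2186 bp from the TSS, at rank 5682, and replicate 3 at 23140257, 1649 bp from the TSS, at rank 6303. The signal is the authors' enrichment value per peak. It is not scaled between lists, so ranks within each list were used to set replicates side by side. No summit was within 500 bp of the hh TSS in any of the 4 lists. Beyond the window, the nearest optimal summit was 7262 bp upstream of the TSS, at 23149168, in intergenic sequence whose nearest TSS is that of hh. Its signal of 139 and rank of 3080 put it near the lower end of the optimal list. It ranked 4207 in replicate 2 and 2032 in replicate 3.

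The other ligand gene, wg (FBgn0284084, 2L, 7307159 to 7316265, plus strand), also had no optimal summit in its window. Of its 5 relaxed summits the strongest was intronic, at 7313363, 6204 bp from the TSS, with a pooled signal of 94.6 and rank 6532. It ranked 6395 in replicate 2 and 8720 in replicate 3, close to the ranks of the hh summit. At the wg TSS a summit was listed in replicate 3 alone, at rank 13081. The nearest optimal summit lay 11047 bp upstream of the TSS, at 7296112, with a signal of 218 and rank 1520. It ranked 1224 in replicate 2 and 4887 in replicate 3.

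The 4 windows of 200 bp below are centred on these summits and are shown because they hold the strongest pooled summits within the ligand genes and the closest optimal summits outside them. They are RefSeq sequence of the Release 6 genome, read 5′ to 3′ on the strand of the gene, with matches to any of 10 searched motifs in capitals. The first is chr3R:23134764-23134963, the second chr3R:23149068-23149267, the third chr2L:7313263-7313462 and the fourth chr2L:7296012-7296211. The upstream windows were chosen after their values were seen.
hh intron: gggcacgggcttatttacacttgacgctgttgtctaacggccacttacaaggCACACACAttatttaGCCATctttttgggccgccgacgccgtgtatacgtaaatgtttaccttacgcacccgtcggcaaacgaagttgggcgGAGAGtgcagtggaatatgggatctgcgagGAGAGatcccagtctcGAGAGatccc
hh upstream: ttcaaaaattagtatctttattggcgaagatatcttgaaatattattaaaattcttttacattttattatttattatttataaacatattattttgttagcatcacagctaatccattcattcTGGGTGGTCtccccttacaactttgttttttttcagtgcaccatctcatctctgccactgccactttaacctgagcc
wg intron: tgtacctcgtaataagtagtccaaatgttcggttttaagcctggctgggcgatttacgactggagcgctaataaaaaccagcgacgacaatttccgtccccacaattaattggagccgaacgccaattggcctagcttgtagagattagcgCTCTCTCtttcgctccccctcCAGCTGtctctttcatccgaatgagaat
wg upstream: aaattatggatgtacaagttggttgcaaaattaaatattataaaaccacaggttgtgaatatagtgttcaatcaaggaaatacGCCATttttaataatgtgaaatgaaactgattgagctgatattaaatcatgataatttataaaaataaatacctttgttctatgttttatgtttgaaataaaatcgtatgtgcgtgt

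The intronic window of hh held GAGAG, a core of GAGA factor sites, at 3 places, 1 GCCAT (the core of Pho, a Polycomb recruiter) and 1 CA repeat. The intronic window of wg held the GAGA core, on the minus strand, at 2 overlapping places and 1 E-box (CAGCTG). The intronic windows were 52.5% GC at hh and 48% at wg, and the upstream windows 30.5% GC at hh and 25.5% at wg. The upstream window of hh held the Ci letters TGGGTGGTC without a mismatch, and the upstream window of wg held 1 GCCAT. Over all 3170 optimal windows of 200 bp, the Ci letters were in 4 (0.126%), GAGAG in 24.3% and GCCAT in 26.8%, both strands counted. The intronic summits of hh and wg are in the relaxed list, where 23.5% of all 30000 windows held GAGAG, 35.1% GCCAT, 9.57% the E-box and 5.37% the CA repeat. Of the 66 relaxed member windows, 27.3% held GAGAG, 36.4% GCCAT, 15.2% the E-box and 9.09% the CA repeat. A match is a description of the letters and not of a bound site.

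The receptor gene ptc (FBgn0003892, 2R, 8649649 to 8665223, plus strand) had 3 optimal summits, which lay at its TSS, in an intron and past its 3' end. The summit at 8649620 lay 29 bp upstream of the single annotated TSS, with a pooled signal of 169 and rank 2282. In replicate 3 it had a signal of 120, rank 652 and a −log10 q of 3.60. In replicate 2 it had a signal of 50.7, rank 9188 and a −log10 q of 0.38. The ptc promoter summit was thus among the 3170 strongest in replicate 3 and far outside them in replicate 2, although the summit moved by at most 7 bp between lists. Its window held GAGAG at 6 places, some of them overlapping. It was the 1 window with GAGAG among the 6 optimal member windows, against 24.3% of all optimal windows.

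The intronic summit of ptc, at 8654427, was 4778 bp into the gene and 2931 bp from the TSS of lncRNA:CR44281, the nearest TSS. It was the strongest at ptc, with a pooled signal of 219 and rank 1519. It had a signal of 128 and rank 574 in replicate 3 and a signal of 87.4 and rank 3334 in replicate 2, just outside the 3170 strongest there. The third summit, at 8667075, went the other way, with a signal of 144 and rank 1643 in replicate 2 and a signal of 33.5 and rank 12135 in replicate 3. It lay 1852 bp past the end of ptc, inside the neighbouring gene Acsl and 904 bp from an Acsl TSS. None of the 3 ptc summits reached the top 3170 of both replicates. Both the promoter summit and the one in Acsl count through the flank of 2 kb. Without a flank, the members held 4 optimal summits, with the intronic one alone at ptc. Below the optimal limit, 4 more intronic summits of ptc were found in replicate 2 with no summit within 100 bp in replicate 3. The strongest was at 8652397, with rank 2858 in replicate 2, followed by 8653945, with rank 3533 in replicate 2. Both lay nearest to the TSS of lncRNA:CR44281. The others were weak, with ranks of 25074 and 26275 in replicate 2. Except at 8653945, a replicate 3 peak interval overlapped that of the pooled summit, so these sites need not be particular to replicate 2.

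The signal transducer gene smo (FBgn0003444, 2L, 277582 to 282167, plus strand) had the fewest relaxed summits of the 8. Its single pooled summit, at 279407 in a coding exon, had a signal of 55.2 and rank 22509, and neither replicate had a summit within 100 bp. Replicate 2 listed no summit in the window and replicate 3 listed 1, at another position, at rank 25050. The nearest optimal summit was 9922 bp upstream of the TSS and 155 bp from a TSS of CG17075.

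The transcription factor gene ci (FBgn0004859, arm 4, 47710 to 57041, minus strand) came closest to the optimal list without entering it. Its strongest summit, at 56322, was 9 bp from the downstream one of 2 annotated TSSs, in sequence annotated as 5' UTR. The pooled signal was 125 and the rank 3711, against a lowest optimal signal of 137. In replicate 3 its signal was 65.9 and its rank 2373, within the 3170 strongest, and in replicate 2 its signal was 69.9 and its rank 4842. Replicate 3 placed the summit 39 bp and replicate 2 placed it 0 bp from the pooled position. The small arm 4 held 9 optimal summits in all and 146 of the 30000 relaxed ones. The nearest optimal summit to ci was 10232 bp away, 66 bp from the TSS of the ribosomal protein gene RpS3A.

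The homeodomain gene inv (FBgn0001269, 2R, 11474465 to 11509695, plus strand) carried the strongest site of the 8 genes. This summit, at 11487191 in an intron and 11483 bp from the nearest inv TSS, had a pooled signal of 936 and rank 158. It had a signal of 542 and rank 199 in replicate 2 and a signal of 402 and rank 120 in replicate 3, so it was high in both. The summit position differed by 1 bp between the pooled list and each replicate. It alone of the 6 reached the top 3170 of each replicate. The second optimal summit, at 11487390, came from a peak whose interval overlapped the first, so the pair may be read as 1 double site. The signal of the second summit was 208 in the pooled list, at rank 1645. It ranked 4565 in replicate 2 and 624 in replicate 3. The third, at 11500177, had a pooled signal of 148 and rank 2807, with rank 2408 in replicate 2 and rank 8712 in replicate 3.

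At the inv promoters no summit reached the optimal list. The strongest relaxed summit within 500 bp of an inv TSS ranked 7476 in the pooled list. This summit, at 11475596, had no summit within 100 bp in either replicate, although peak intervals of both replicates overlapped its own. Its window held GAGAG at 8 places, letters found in 18 of the 66 relaxed member windows (27.3%) and 23.5% of all 30000. Other summits led near these TSSs in the replicates, at rank 11100 in replicate 2 and 3782 in replicate 3. The strongest site of all, at 11487191, held no GAGAG and 2 copies of the homeodomain core TAATTA, letters found in 16.3% of optimal windows. The windows of 2 further intronic summits of inv held the Ci letters without a mismatch, at 11491393 (pooled rank 7411) and 11485111 (pooled rank 14887). They were the only 2 of the 66 relaxed windows with these letters, or 3.03%, against 0.133% of all 30000 relaxed windows; the windows of the other 7 genes held none. The first was found in both replicates, at rank 9227 in replicate 2 and 9170 in replicate 3, and the second in replicate 2 alone, at rank 20696. The pooled −log10 q was 0.64 for the first and 0.26 for the second.

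The paralogue en (FBgn0000577, 2R, 11524006 to 11528210, minus strand) had many weak summits and none in the optimal list. Its 7 relaxed summits had pooled ranks from 7506 to 29385 and signals from 48.9 to 88.3. The summit at its promoter, at 11527924, was 41 bp from a TSS and had a signal of 77.6 and rank 10147. It ranked 11889 in replicate 2 and 18597 in replicate 3. Another, 1828 bp upstream of the TSS, had a signal of 58.7 and was found in both replicates, at rank 17338 in replicate 2 and 26292 in replicate 3. The nearest optimal summit to en lay 13038 bp upstream, at 11541248, with a signal of 180 and rank 2054. It ranked 860 in replicate 3 and 4625 in replicate 2.

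The paired-domain gene gsb (FBgn0001148, 2R, 25061964 to 25064643, plus strand), which acts with wg in the same cells, had 4 relaxed summits. The strongest, at 25066240, lay 1597 bp past the gene's end and had a signal of 99.5 and rank 5877. It had a signal of 71.9 and rank 4611 in replicate 2. Replicate 3 had no summit within 100 bp, but listed a summit at 25066118, at rank 13765, whose peak interval overlapped. The promoter summit, 54 bp from the TSS, ranked 9547 in the pooled list and 9035 in replicate 2. In replicate 3 a summit 65 bp from the TSS, not within 100 bp of the pooled one, ranked 15001. The nearest optimal summit was 92422 bp away, 5 bp from a TSS of RpL19.

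**Figure D2:**
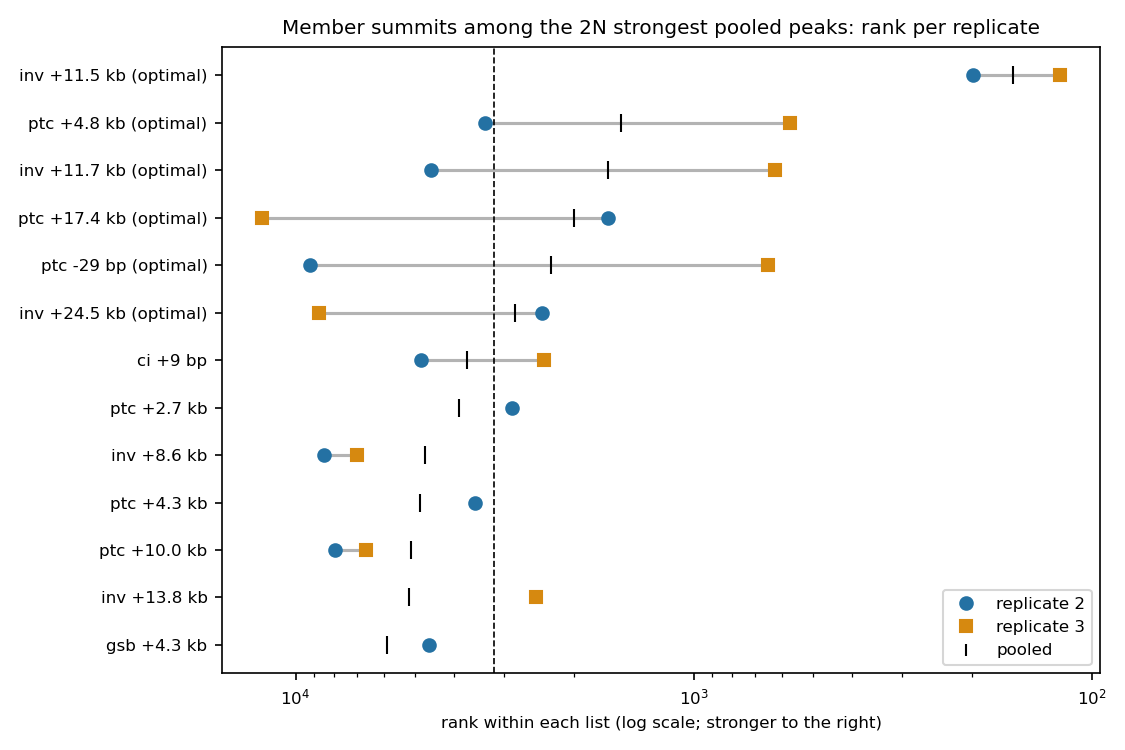
Ranks of the 13 member summits among the 6340 strongest pooled peaks. Each row is 1 summit, named by its gene and its distance from the nearest own TSS; the x axis is the rank on a log scale, stronger to the right. Blue circles are replicate 2, orange squares replicate 3, black ticks the pooled list, and the dashed line is rank 3170; a missing symbol means no summit within 100 bp. The strongest inv summit, of rank 158, has all 3 symbols right of the line, and the other 5 optimal summits have 1 replicate to its left.

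The replicates placed these sites at nearly the same bases but ranked them differently. For the 6 optimal member summits the median distance to the nearest replicate summit was 3 bp in both replicates, against 6 bp in replicate 2 and 20 bp in replicate 3 over all optimal summits. Of the 6, 1 (16.7%) reached the top 3170 of each replicate, 2 that of replicate 2 but not 3, and 3 that of replicate 3 but not 2. Over all 3170 optimal summits, 1598 (50.4%) reached both, 1079 replicate 2 but not 3, and 394 replicate 3 but not 2. With so few summits this is a description. Of the 66 relaxed summits, 25 (37.9%) had a summit within 100 bp in both replicates, against 35% of all 30000.

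Ordered by their strongest summit, the genes ran inv, ptc, ci, gsb, wg, hh, en and smo. To place each gene among all others, the share of all protein-coding genes with a stronger summit in their own window was counted in each list. For inv it was 1.47% in the pooled list, 1.98% in replicate 2 and 1% in replicate 3. For ptc it was 12.6% in the pooled list, 13.8% in replicate 2 and 4.72% in replicate 3. For ci it was 24.1% in the pooled list, 29.3% in replicate 2 and 16.4% in replicate 3. The replicate values of inv, ptc and ci did not overlap each other, while those of ci and gsb did. The next genes, gsb, wg, hh and en, lay between 33.0% and 38.3% in the pooled list. The replicate values of gsb, 28.3% in replicate 2 and 54.1% in replicate 3, spanned those of the other three. Those of en, 36.7% in replicate 2 and 30.3% in replicate 3, overlapped those of hh and of wg. The replicate values of hh, 32.4% in replicate 2 and 34.2% in replicate 3, lay below those of wg, 34.9% in replicate 2 and 42% in replicate 3, while both genes were at 35.2% in the pooled list. For smo it was 69.3% in the pooled list and 70.8% in replicate 3. The strongest summit of a gene need not be the same site in both replicates. At hh it lay at different intronic sites in the replicates, and neither was the pooled one. At ptc it was the site inside Acsl in replicate 2 and the intronic one in replicate 3, and at en it lay downstream in replicate 2 and in the intron in replicate 3.

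**Figure D3:**
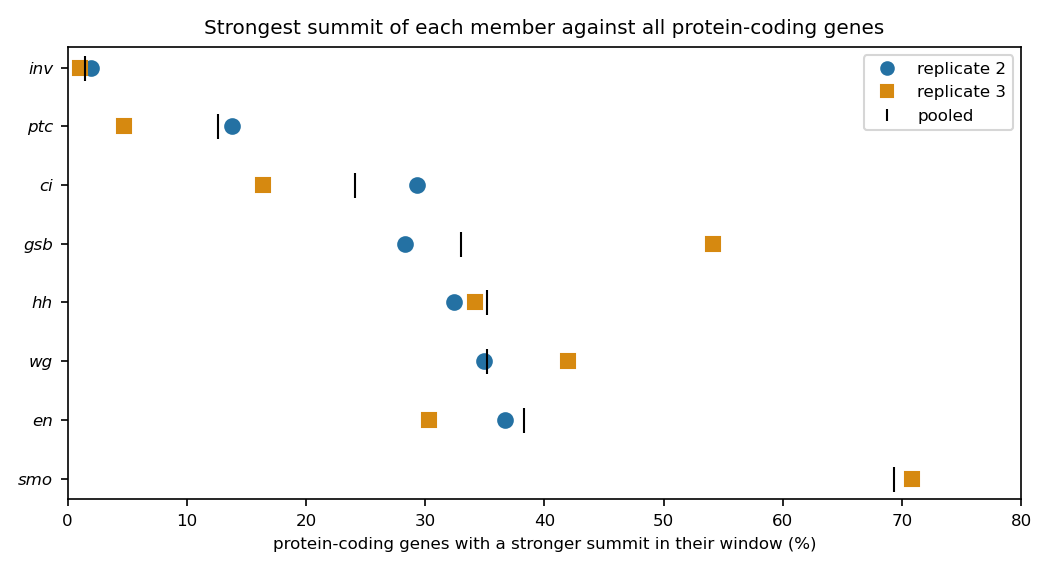
Share of protein-coding genes with a stronger summit in the gene or 2 kb to each side (x axis, percent) for the strongest summit of each member (rows). Black ticks are the pooled list, blue circles replicate 2 and orange squares replicate 3; smo has no summit in replicate 2. The values of inv lie from 1% to 1.98%, and the values of gsb and of en overlap those of hh and wg.

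Of 55 other genes of the Hedgehog and Wingless pathways, in 4 lists, 29 had an optimal summit in the gene or 2 kb to each side. The share was 52.7% (95% exact interval 38.8 to 66.3), against 21.5% of all protein-coding genes. The lists were chosen with earlier results of these data known, so the intervals are descriptive and no enrichment test was made. A longer window can hold more summits, and 24 of the 55 genes were 10 kb or longer, against 1985 of all 13968. Among genes of 10 kb and longer the count was 2 of 3 members and 17 of 24 pathway genes (70.8%), against 46.4% of all genes of that length. Among shorter genes it was 0 of 5 members (95% exact interval 0 to 52.2%) and 12 of 31 pathway genes (38.7%, 95% exact interval 21.8 to 57.8), against 17.4% of all shorter genes. In 11 of the 29 the strongest summit lay nearest to the TSS of another gene. Within 500 bp of an own TSS there was an optimal summit at 10 of the 55 (18.2%, 95% exact interval 9.08 to 30.9), against 10.3% of all genes. In the 3170 strongest peaks of each replicate the count at a TSS was 7 in replicate 2 (against 10.6% of all genes) and 18 in replicate 3 (against 10.5%), so it depends on the replicate.

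**Figure D4:**
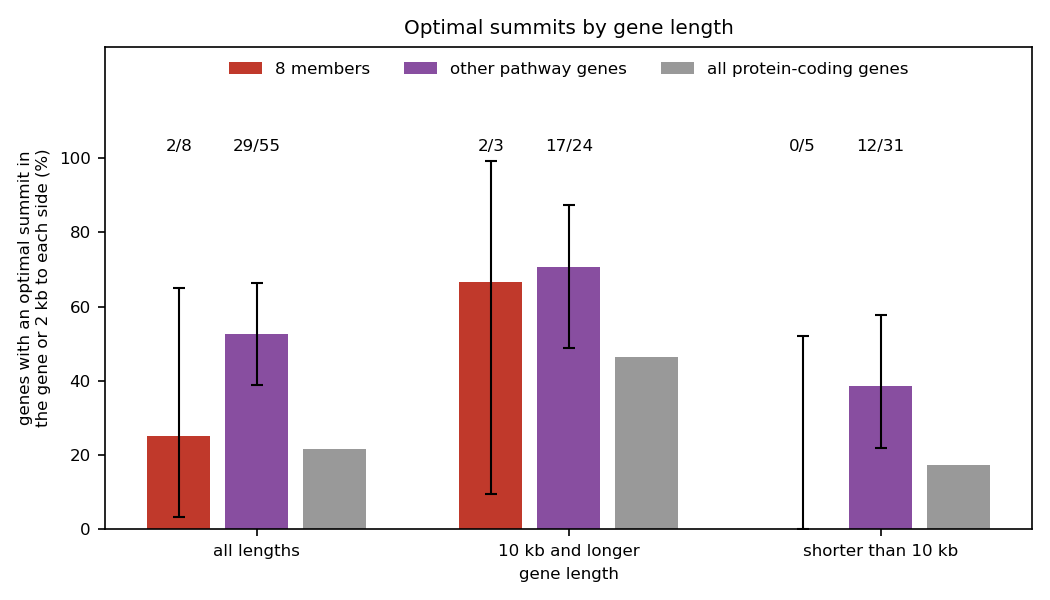
Percent of genes with an optimal summit in the gene or 2 kb to each side, by gene length. Red bars are the 8 members, purple bars the 55 other pathway genes and grey bars all protein-coding genes; error bars are 95% exact binomial intervals and the fractions above are genes with a summit over genes in the group. The share among all genes is 46.4% at 10 kb and longer and 17.4% below.

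In the production and spread of Hedgehog 5 of 8 genes had an optimal summit in the window. This was 62.5% (95% exact interval 24.5 to 91.5), against 21.5% of all genes. The share of all genes, here and in the lists below, is not matched for gene length. The strongest summit was at dlp, a glypican that carries Hedgehog and Wingless on the cell surface. It had a signal of 356, rank 716 in replicate 2 and rank 826 in replicate 3. This summit lay 33563 bp from the nearest dlp TSS and 4218 bp from that of lncRNA:CR45888. The other glypican gene, dally, had a summit 29 bp from a TSS with a signal of 208, which ranked 2518 in replicate 2 and 876 in replicate 3. The summit at shf, with a signal of 212, was 35 bp from a TSS of Coq7, and that at sotv, with a signal of 163, was 108 bp from a TSS of lbk.

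In reception and transduction 6 of 13 genes had an optimal summit in the window. This was 46.2% (95% exact interval 19.2 to 74.9), against 21.5% of all genes. At Gprk2, a kinase that phosphorylates Smoothened, the signal was 1109, with rank 103 in replicate 2 and 215 in replicate 3. However, this summit lay 76 bp from a TSS of PNPase and 581 bp from one of Gprk2. The kinase gene sgg had a summit 211 bp from its own TSS with a signal of 520, which ranked 389 in replicate 2 and 338 in replicate 3. The gene rdx, whose product targets Ci for degradation, had 8 optimal summits, the strongest with a signal of 494 at 13212 bp from its TSS and the one at its TSS with a signal of 401. The co-receptor gene boi had a summit 1282 bp from its TSS with a signal of 222.

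In the Wingless pathway 11 of 22 genes had an optimal summit in the window. This was 50% (95% exact interval 28.2 to 71.8), against 21.5% of all genes. At an own TSS 5 of the 22 had an optimal summit (22.7%, 95% exact interval 7.82 to 45.4), against 10.3%. The list mixes long genes such as fz, of 94297 bp, with short ones such as dsh, of 2844 bp. Over all genes the share in the window was 46.4% at 10 kb and longer and 17.4% below. Thus 50% against 21.5% is not a contrast between genes of equal length. In the 3170 strongest peaks the count in the window was 11 in replicate 2 (against 22.2% of all genes) and 13 in replicate 3 (against 20.7%). At an own TSS it was 3 in replicate 2 (against 10.6% of all genes) and 8 in replicate 3 (against 10.5%). The receptor gene fz had 6 optimal summits, the strongest with a signal of 581 at 29699 bp from its TSS and 22209 bp from that of lncRNA:CR45025. A weaker one lay 36 bp from a TSS, with a signal of 143. The corepressor gene gro had 1 at 124 bp from its TSS with a signal of 447, which ranked 414 in replicate 2 and 944 in replicate 3. At the TSSs of arr, the co-receptor gene, Apc and arm, the signals were 298, 193 and 159. Those at Apc and arm were among the 3170 strongest in replicate 3 alone, with ranks of 3554 for Apc and 4641 for arm in replicate 2. At fz too, a summit within 500 bp of a TSS was among the 3170 strongest in replicate 3 alone. The Wnt gene Wnt10 had a summit with a signal of 362, nearest to the TSS of asRNA:CR44063 at 1502 bp, and nkd, a feedback antagonist of Wingless, 1 with a signal of 322.

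Among segmental transcription factors and Hedgehog targets 7 of 12 genes had an optimal summit in the window. This was 58.3% (95% exact interval 27.7 to 84.8), against 21.5% of all genes. The strongest summit was at bowl, 184 bp from a TSS. It had a signal of 343, rank 634 in replicate 2 and rank 1395 in replicate 3. At slp1 the summit was 2234 bp from the TSS, with a signal of 243. The Hedgehog target dpp, a BMP ligand gene, had 1 with a signal of 178, 5266 bp from a TSS. The summit at lin, with a signal of 172, was 66 bp from a TSS of Pgi, and that at rho, with a signal of 148, was 83 bp from its own TSS.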

How the data were processed

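The authors deposited ChIP-seq peak lists for both replicates of hng2-GFP embryos, and those on dm6 were used: relaxed lists of 30000 peaks per replicate and for the pooled replicates, and the optimal list after IDR. Per the file headers of the library notes, lists were derived from ChIP and control alignments. Which caller made them, and with which IDR limit, is not stated in the labels or notes. The deposited signal is an enrichment value per peak, the deposited −log10 q-value is the caller's, and the deposited summit offset is in bp from the peak start. The 4 dm3 lists were not analysed here. Depth is unknown, as peak lists carry no reads, and intervals cover counting error over genes.

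Summits are peak start plus offset, 1-based. The annotation was Ensembl release 115 (BDGP6.54, the same Release 6 assembly as dm6). Windows were the gene plus 2000 bp to each side. Replicate summits within 100 bp matched. N is 3170, the length of the optimal list, whose peaks are the strongest pooled ones. Counting and motif code was tested on simulated data. Motifs, both strands, in 200 bp windows, were GAGAG (GAGA factor), CAGGTAG (Zelda), TGGGTGGTC (Ci), CTTTGAT (TCF), GCCAT (Pho), AGGNGGC (CTCF core), TATCGATA (DRE), CAGCTG (E-box), CACACACA (CA repeat) and TAATTA (homeodomain core). Overlapping matches were each counted. Named genes were the 8 members, up to 4 genes of highest signal per pathway list, those with an optimal summit at a TSS, neighbours with the nearest TSS, and the 2 genes most like ptc and inv. Members, lists and rules were chosen with earlier results of these data known. No test was run, since there is 1 group. Python 3.11.15, pandas 2.3.3, NumPy 2.4.6, SciPy 1.17.1 and matplotlib 3.10.9 were used.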

Additional observations from a re-analysis of the deposited data

How the results depend on the processing

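No paired analysis was possible because the samples form 1 group. The 2 genes with an optimal summit in the window became 4 with a flank of 10 kb (hh and smo added) and 4 with the 6340 strongest pooled peaks (ci and gsb added). The 6 summits became 11 and 13 in these settings, 2 in the 1585 optimal peaks of highest signal and 5 with overlapping peaks counted once, an alternative added after seeing the data. Members with a summit at an own TSS, 1 in the optimal list, were 0 in those 1585 and 2 with the 6340 strongest. Summits shared by both replicates, 1 in the main setting, were 2 with a flank of 5 kb, 4 with 10 kb, 2 within 250 bp and 2 by interval overlap. Pathway genes with a summit in the window, 29, were 20 without a flank, 41 with a flank of 10 kb, 37 with the 6340 strongest and 13 in the 1585. Those at an own TSS, 10, were 5 in the 1585 and 20 with the 6340 strongest. For these changed flanks and lists the share of all protein-coding genes is not given here, so the counts have no background. A wider flank or a longer list can add summits at any gene, and a shorter list can remove them. With 1 replicate left out, the ranges were 2 to 3 members, 4 to 6 summits, 0 to 2 members at a TSS (ptc and ci in replicate 3, none in replicate 2), 24 to 31 pathway genes and 7 to 18 of them at a TSS. The lists give no read counts, so a low rank does not show that the protein was absent.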

Other observations

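The genes whose values were most like those of inv were Pc, which encodes the chromodomain subunit of Polycomb repressive complex 1, and CG3655. Likeness was the Euclidean distance over the log10 rank of the strongest summit in the pooled, replicate 2 and replicate 3 lists and the log10 distance of the pooled summit to an own TSS, among 8798 genes and over 2 samples. The strongest summit of each list in the window of Pc ranked 159 in the pooled list, 147 in replicate 2 and 170 in replicate 3, the pooled one 13444 bp from its TSS, at a distance of 0.212 from inv. For CG3655 the ranks were 112 in the pooled list, 155 in replicate 2 and 90 in replicate 3, at a distance of 0.224. The genes most like ptc were CG4945, at a distance of 0.111, and Notum, which encodes a secreted Wnt deacylase and is one of the 55 pathway genes, at 0.113. The strongest summit of each list at Notum ranked 1288 in the pooled list, 1720 in replicate 2 and 621 in replicate 3, the pooled one 3994 bp from its TSS.

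Besides the window upstream of hh, 3 optimal windows held the Ci letters without a mismatch. Their nearest TSSs were those of tkv, at 7923 bp with a signal of 2862 and rank 39, of Zasp52, at 13641 bp with a signal of 374, and of the cyclin gene CycE, at 427 bp with a signal of 282. With 1 mismatch allowed, 59 optimal windows (1.86%) and 6 of the 66 relaxed member windows (9.09%) held the letters, against 3.45% of all relaxed windows. All 6 were intronic windows of inv, which holds 29 of the 66, and the windows of the other 7 genes held none. The median GC content was 40.8% in the 6 optimal member windows, against 36% over all optimal windows, and 45.8% in the 66 relaxed member windows, against 42.5% over all relaxed windows.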
